A study of Mus musculus with 9 samples.

Results

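The Hox cluster miRNAs are the mature products of 6 hairpins that lie among the Hox genes of the mouse genome. They were taken here as 8 named mature miRNAs, mmu-miR-10a-5p, mmu-miR-10a-3p, mmu-miR-10b-5p, mmu-miR-10b-3p, mmu-miR-196a-5p, mmu-miR-196b-5p, mmu-miR-615-3p and mmu-miR-615-5p, all encoded there. The list leaves out the 3p arms of the miR-196 hairpins. Of these, miR-196a-2-3p had a count in 4 of 9 libraries and miR-196b-3p in 1 of 9. The members are 8 of the 1915 miRNA identifiers in the tables, of which 479 had a count in at least 1 library and 260 in every library. All 8 had a count in each of the 9 libraries, and all 8 passed the filter on low counts that left 361 miRNAs for testing.

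The libraries were small RNA sequencing of extracellular vesicles, the membrane-bound particles that cells release, collected from the medium of 1 mouse podocyte cell line, which was conditionally immortalized. Podocytes form the outer cell layer of the kidney's filtration barrier, where their foot processes cover the glomerular capillaries. All cells were differentiated for 10 days without interferon-γ in serum-containing medium and then treated for 48 h, in 3 groups of 3 libraries each. The normal glucose group had 5.3 mM glucose, the high glucose group had 30 mM glucose, and the mannitol group combined 5.3 mM glucose and 24.7 mM of mannitol, which matches the osmolality of high glucose. Vesicles were collected with a precipitation reagent, so the fraction is defined by that step. Whether libraries within a group stem from different cultures is not stated in the labels, so the tests measure the spread between these libraries, which may be technical. What the replicate numbers in the library titles stand for is not stated, and they are used here as names.

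Counts assigned to miRNAs ranged from 725211 to 2553690 per library. No miRNA had a count from 1 to 9, so a listed 0 can hold up to 9 reads, which is 3.52 to 12.4 CPM depending on the library. Levels are given as CPM, the count scaled to 1e6 miRNA counts in a library, a share that changes when any abundant miRNA moves, and in such a share fewer vesicles carrying a miRNA and fewer copies per vesicle cannot be told apart. The miR-30 family, known to be abundant in podocytes, had 5 of 5 listed members in every library, with a summed level of 126420 to 140209 CPM in normal glucose, 106713 to 177083 in mannitol and 149949 to 224982 in high glucose. Most of it was miR-30a-5p (79829 to 179693 CPM) and miR-30d-5p (25759 to 42500), while miR-30b-5p was at 50.6 to 107. Of 4 kidney tubule miRNAs, 3 were listed in every library, with a sum of 2286 to 5008 CPM. For striated muscle and neural miRNAs it was 4 of 5, with 1406 to 6070 CPM. For endothelial miRNAs it was 1 of 2, with 229 to 825 CPM. Of 9 blood, immune and liver miRNAs, 4 were listed in every library and 1, miR-142a-3p, in none. miR-486a-5p and miR-486b-5p have identical counts in every library, and with that pair counted once the summed level was 15523 to 30463 CPM in normal glucose, 15507 to 33520 in mannitol and 13495 to 25642 in high glucose. The liver miRNA miR-122-5p alone was at 9508 to 22512 CPM. The part of such RNA, or of serum RNA, in the values below was not tested. The defining messenger RNAs of podocytes are outside a miRNA table and could not be checked.

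Hox genes encode transcription factors that give cells their position along the body axis, and they keep that expression in adult cells of many tissues. The clusters also hold miRNA genes at conserved places: miR-10 beside the Hox4 genes, miR-196 beside Hox9 and Hox10 genes, and miR-615 inside Hoxc5. A miRNA guides the Argonaute protein to messenger RNAs that pair with its seed, the bases 2 to 8 from its 5′ end. miR-196 is known for cleaving Hoxb8 mRNA at a nearly fully paired site, and miR-10 for repressing Hox genes such as Hoxd10. Each hairpin gives a 5p and a 3p arm, and 1 of them is usually kept as the guide while the other, the passenger, is degraded.

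The mature sequences show how closely the members are related and are the reason why they can be grouped by seed. They are the RefSeq sequences on GRCm38.p6, to which all 8 members were matched by name, written 5′ to 3′ with the seed in capitals.
mmu-miR-10a-5p: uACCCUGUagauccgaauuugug
mmu-miR-10b-5p: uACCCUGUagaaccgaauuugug
mmu-miR-10a-3p: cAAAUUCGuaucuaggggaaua
mmu-miR-10b-3p: cAGAUUCGauucuaggggaaua
mmu-miR-196a-5p: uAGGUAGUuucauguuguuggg
mmu-miR-196b-5p: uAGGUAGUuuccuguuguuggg
mmu-miR-615-3p: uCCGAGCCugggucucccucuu
mmu-miR-615-5p: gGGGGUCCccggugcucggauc
The miR-10 5p arms share the seed ACCCUGU and differ at 1 of 23 positions, which is U12A going from miR-10a-5p to miR-10b-5p with positions counted from 1 at the 5′ end. The miR-196 5p arms share the seed AGGUAGU and differ at 1 of 22 positions, A12C from miR-196a-5p to miR-196b-5p. The miR-10 3p arms differ by A3G, U9A and A10U, so their seeds differ as well. No identifier outside each pair carried the seed of the miR-10 or miR-196 5p arms, and each of the other 4 members had a seed of its own, among the 1623 identifiers with a RefSeq sequence. The single-base differences mean that counts of a pair depend on reads being assigned by 1 base, and the rule by which the authors assigned such reads is not known from the labels or files. The miR-615 arms stand apart by base composition, with 63.6% G and C in the 3p and 77.3% in the 5p arm, against 36.4% to 45.5% in the other 6 members.

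The hairpins of miR-10a and miR-10b carry the 2 most abundant members, shown here with both mature arms in capitals.
Mir10a: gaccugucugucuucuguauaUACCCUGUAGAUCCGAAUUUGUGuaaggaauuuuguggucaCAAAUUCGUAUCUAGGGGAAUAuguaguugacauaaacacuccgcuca
Mir10b: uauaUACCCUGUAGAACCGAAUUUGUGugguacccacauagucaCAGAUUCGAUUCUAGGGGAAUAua
Mir10a lies in the HoxB cluster at chr11:96317165-96317274 on the plus strand of GRCm38, 993 bases from Hoxb4 and in no annotated host transcript. Mir10b lies in the HoxD cluster at chr2:74726070-74726137 on the plus strand, in introns of Hoxd3 and Hoxd4. miR-196a-5p has 2 sources, Mir196a-1 at chr11:96265164-96265265 (plus strand, 6192 bases from Hoxb9) and Mir196a-2 at chr15:102973350-102973434 (plus strand, in an intron of a long Hoxc5 transcript, between Hoxc10 and Hoxc9), and its counts cannot be divided between them. Mir196b is at chr6:52230081-52230165 on the minus strand, where it overlaps an exon of 2 Hoxa9 transcripts and an intron of 1. Mir615 is at chr15:103014910-103015001 on the plus strand, in an intron of Hoxc5.

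The 8 members together took 20.5% ± 1.22 (SD, n = 3) of all miRNA counts in normal glucose, 17.2% ± 3.59 (n = 3) in mannitol and 16.5% ± 2.06 (n = 3) in high glucose. By library, the share was 19.3%, 21.7% and 20.4% in normal glucose, 16.3%, 14.2% and 21.2% in mannitol, and 18.3%, 14.2% and 16.8% in high glucose. The Wilson 95% interval of each share was at most 0.178 percentage points wide, which covers counting error only, so the differences between libraries of 1 group were far larger than counting error. The normal glucose and high glucose libraries did not overlap in this share, and the mannitol libraries overlapped both. On the scale of the authors' normalized column, in reads per 1e6 of the library constant (RPM), the summed level was 9882 to 13425 in normal glucose, 9562 to 20564 in mannitol and 6281 to 13465 in high glucose. All 3 groups overlapped there, and the mean was highest in mannitol, at 13246 against 11102 and 9233 RPM. That mean rests on mannitol replicate 3, at 20564 RPM. The median was highest in normal glucose, at 9998 RPM against 9612 in mannitol and 7952 in high glucose. Nearly all of the members' share came from the miR-10 5p arms, which took 19.5% ± 1.02, 16.3% ± 3.53 and 15.8% ± 1.97 in the same order.

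miR-10a-5p, a guide arm that ranked between 1 and 4 by level in each library, was at 97326, 106864 and 96849 CPM in normal glucose. It was at 85092, 68700 and 108512 CPM in mannitol and at 91608, 64831 and 78484 CPM in high glucose. The 3 high glucose libraries were all below the 3 normal glucose libraries, while mannitol spanned nearly the whole range.

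miR-10b-5p, its counterpart from HoxD and ranked between 2 and 5, was at 86888, 97611 and 99610 CPM in normal glucose. The mannitol libraries held 66004, 65759 and 93720 CPM, and the high glucose libraries held 83698, 71787 and 84334 CPM. High glucose was again below normal glucose in all 9 pairs of libraries, and mannitol overlapped both groups.

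The passenger arms were far lower. miR-10a-3p was at 480, 355 and 462 CPM in normal glucose, 323, 543 and 327 in mannitol, and 330, 485 and 453 in high glucose. miR-10b-3p was at 262, 313 and 360 CPM in normal glucose, 245, 383 and 268 in mannitol, and 210, 323 and 305 in high glucose. For both passenger arms the 3 groups overlapped, and mannitol replicate 2, low in the miR-10 5p arms, held the highest level of both 3p arms.

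miR-196a-5p, the guide arm of both Mir196a hairpins, was at 2826, 2875 and 2443 CPM in normal glucose, 2867, 3046 and 2056 in mannitol, and 2984, 2528 and 2138 in high glucose. The groups overlapped throughout, and this was the narrowest range of any member, with the highest library 1.48 times the lowest. miR-196b-5p, from beside Hoxa9, was at 272, 232 and 392 CPM in normal glucose, 181, 327 and 229 in mannitol, and 232, 276 and 366 in high glucose. Its highest library was 2.17 times its lowest, and the groups overlapped.

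miR-615-3p, the abundant arm of the hairpin in Hoxc5, was at 4821, 8936 and 3763 CPM in normal glucose, 7779, 3116 and 6669 in mannitol, and 4124, 2234 and 2034 in high glucose. High glucose replicates 2 and 3 were below every library of the other groups, and high glucose replicate 1 lay inside their range. miR-615-5p, its rare partner, was at 35.7, 55.2 and 22.6 CPM in normal glucose, 55.7, 13.2 and 48.0 in mannitol, and 45.5, 14.1 and 19.6 in high glucose. These values rest on 18 to 109 reads each, and the groups overlapped.

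**Figure D1:**
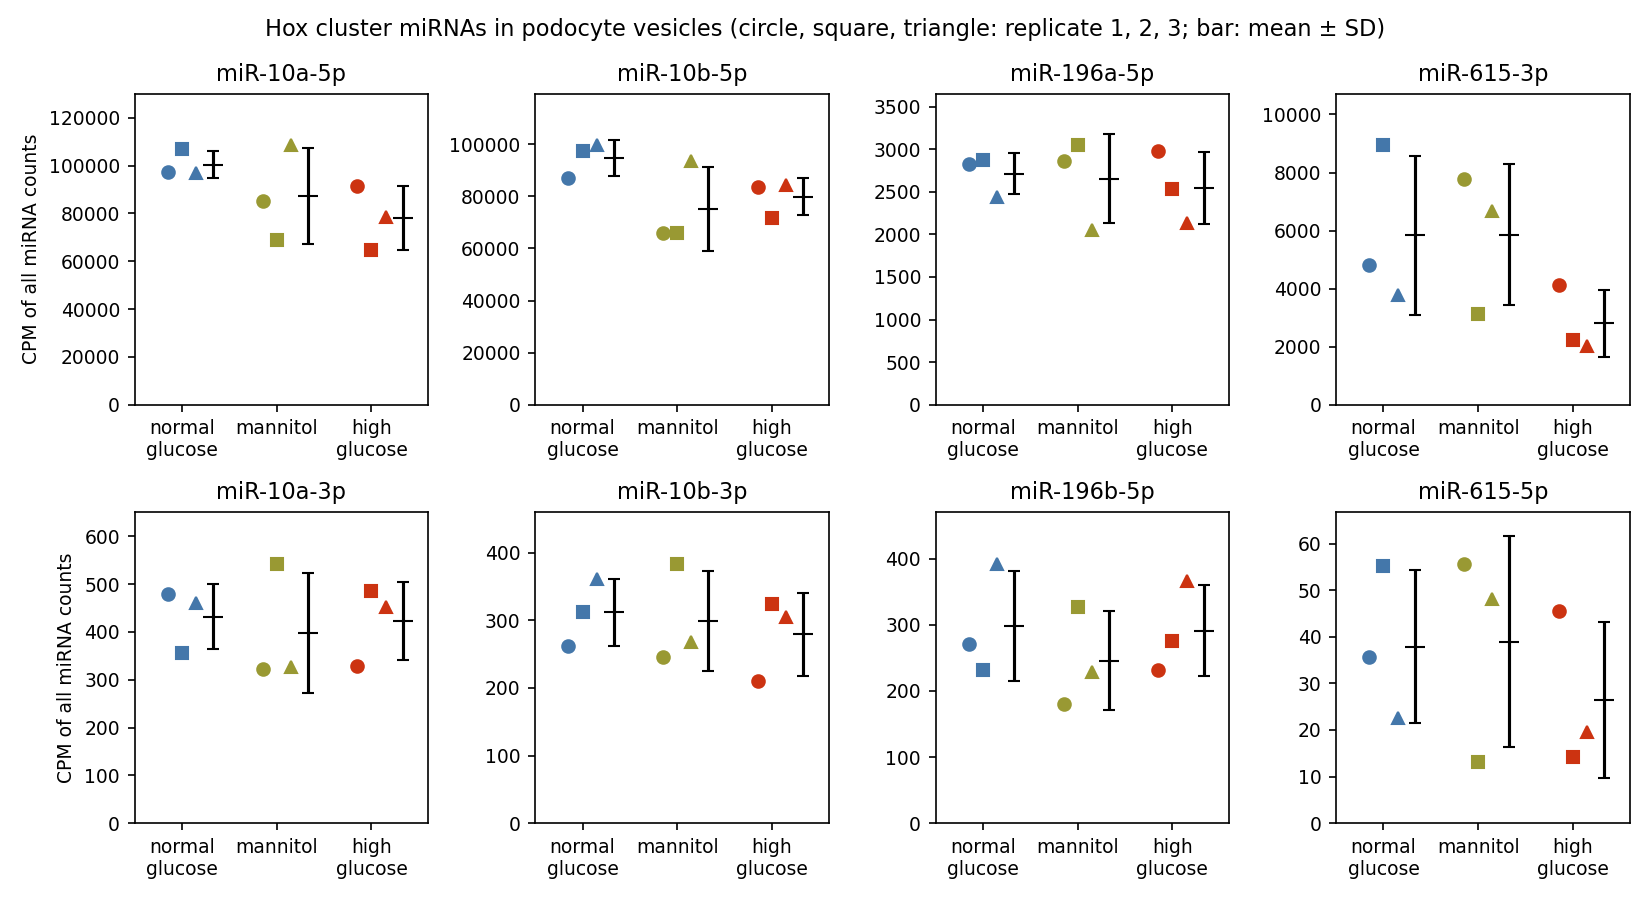
Level of each of the 8 Hox cluster miRNAs in CPM, in 1 panel per miRNA with its own linear axis from 0, with 1 point per library by group and a bar for each group's mean ± SD. The miR-10 5p arms sit between 64831 and 108512 CPM, all above the miR-615-3p range of 2034 to 8936 CPM, and miR-615-5p is lowest at 13.2 to 55.7 CPM.

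The order of mean levels over the 9 libraries was miR-10a-5p (88696 CPM), miR-10b-5p (83268), miR-615-3p (4831), miR-196a-5p (2640), miR-10a-3p (417), miR-10b-3p (297), miR-196b-5p (278) and miR-615-5p (34.4). Levels of different small RNAs also depend on how well each ligates and amplifies, so this is an order of sequenced counts. Ranges did not overlap at 3 steps of this order, namely between miR-10b-5p and miR-615-3p, between miR-196a-5p and miR-10a-3p, and between miR-196b-5p and miR-615-5p. miR-10a-5p was above miR-10b-5p in 6 of 9 libraries, miR-615-3p above miR-196a-5p in 7 of 9, and miR-10b-3p above miR-196b-5p in 5 of 9. The order of those neighbours thus varied between libraries, and their differences were not tested. miR-10a-3p was above miR-10b-3p in 9 of 9 libraries although their ranges over the libraries overlapped.

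The spread within groups was small for the guide arms of miR-10 and miR-196a and large for both miR-615 arms. The coefficient of variation (SD over mean, averaged over the 3 groups) was 12.5% for miR-10b-5p, 15.1% for miR-196a-5p and 15.2% for miR-10a-5p. It was 20.8% for miR-10b-3p, 22.2% for miR-10a-3p and 27.3% for miR-196b-5p, beside a median of 27.3% over the 260 miRNAs listed in every library. It was 43.2% for miR-615-3p and 55.0% for miR-615-5p. Of the 260 miRNAs, 2.31% varied less than miR-10b-5p and 86.2% varied less than miR-615-3p. The 76 miRNAs with a mean of at least 1000 CPM had a median of 23.1%, so miR-615-3p varied more than most miRNAs of its abundance.

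Ratios taken within a library do not depend on how the library is scaled. The ratio of miR-10a-5p to miR-10b-5p, the products of 2 different Hox clusters, was 1.06 ± 0.0791 (SD, n = 3) in normal glucose, 1.16 ± 0.122 (n = 3) in mannitol and 0.976 ± 0.103 (n = 3) in high glucose. It stayed between 0.903 and 1.29 over all libraries, and the groups overlapped. The ratio of the passenger arms, miR-10a-3p to miR-10b-3p, was 1.42 ± 0.369, 1.32 ± 0.0985 and 1.52 ± 0.0469 in the same order of groups. Here high glucose (1.49 to 1.57) lay above mannitol (1.22 to 1.42), while normal glucose (1.14 to 1.83) overlapped both. This difference was not tested. miR-196a-5p exceeded miR-196b-5p 9.68-fold ± 3.15 in normal glucose, 11.4-fold ± 3.90 in mannitol and 9.30-fold ± 3.52 in high glucose.

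The passenger arm was a small part of each hairpin's counts for miR-10 and miR-615. miR-10a-3p made up 0.432% ± 0.0878 (SD, n = 3) of both arms in normal glucose, 0.487% ± 0.260 in mannitol and 0.558% ± 0.192 in high glucose. For miR-10b-3p the shares were 0.327% ± 0.0307, 0.412% ± 0.151 and 0.353% ± 0.0996. miR-615-5p made up 0.649% ± 0.0758, 0.616% ± 0.168 and 0.891% ± 0.238 of its hairpin. The groups overlapped in each of these shares, and the more abundant arm was the same in all 9 libraries.

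**Figure D2:**
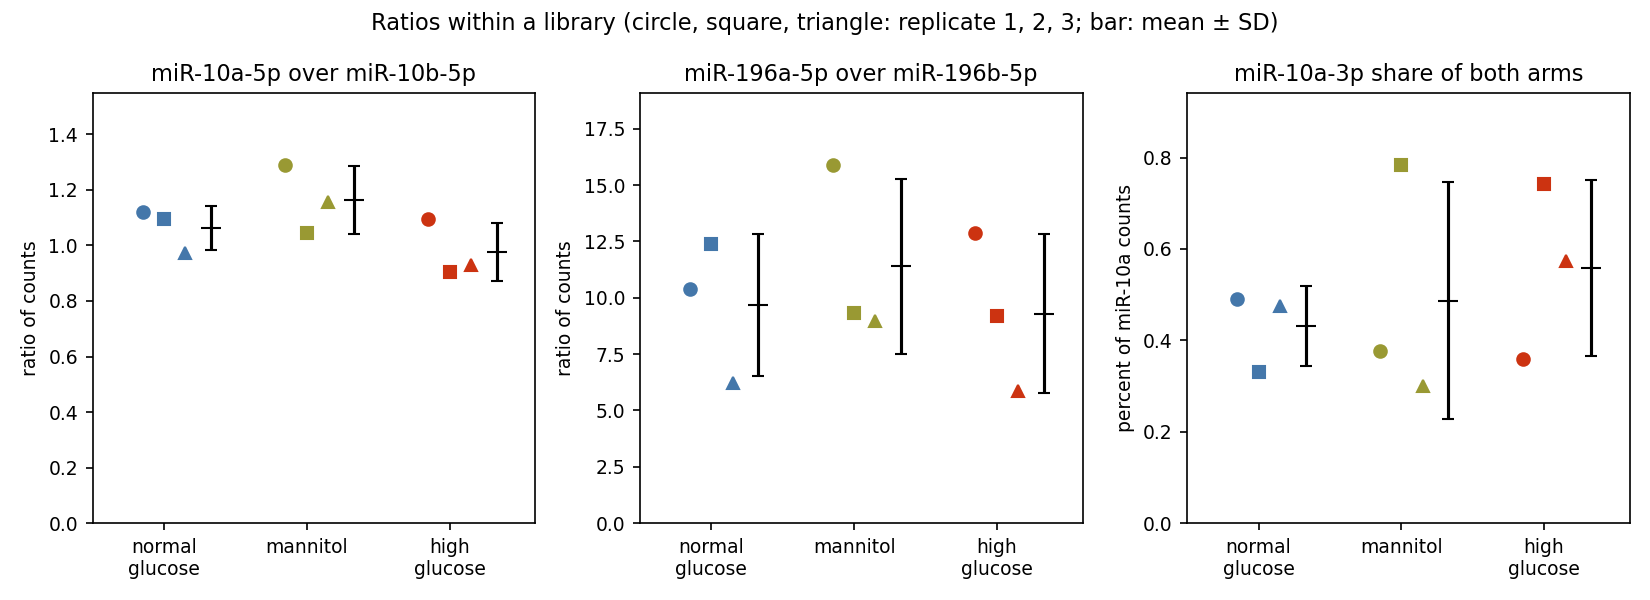
Ratio of miR-10a-5p to miR-10b-5p counts, ratio of miR-196a-5p to miR-196b-5p counts, and miR-10a-3p as a percent of both miR-10a arms, on linear axes from 0, with 1 point per library by group and a bar for each group's mean ± SD. The ratio of miR-10a-5p to miR-10b-5p lies between 0.903 and 1.29 in all 9 libraries, while that of miR-196a-5p to miR-196b-5p runs from 5.85 to 15.9.

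The remaining 3p arms of the miR-196 hairpins are not among the 8 members. miR-196a-1-3p was at 335 ± 22.2 CPM in normal glucose, 368 ± 139 in mannitol and 267 ± 79.8 in high glucose, which was 11.03% ± 1.10, 12.3% ± 4.35 and 9.42% ± 1.78 of its sum with miR-196a-5p. miR-196a-2-3p had a count in 4 of 9 libraries, with 11 to 13 reads each, and miR-196b-3p in 1 of 9, high glucose replicate 3, with 15 reads. The 3p arm seen in every library was thus that of the HoxB copy, Mir196a-1, and the HoxC copy was at the reporting limit. This compares 3p arms only and does not divide the shared 5p counts. Over the 6 hairpins, with miR-196a-5p counted for both of its sources, the 5p arm was the higher in 5, beside 49.4% of 174 hairpins elsewhere. The higher arm began with U in 6 of 6, beside 53.4% of the 174, and the lower arm in 2 of 6, beside 19.5%. The 6 hairpins belong to the miR-10, miR-196 and miR-615 families, with near-identical 5p arms within miR-10 and miR-196. They are therefore not 6 independent observations. A 5′ U is a base known to sit well in the binding pocket of Argonaute, and its part in these counts was not tested.

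High glucose against normal glucose is the comparison of treatment with baseline. In the edgeR quasi-likelihood fit over all 9 libraries, 0 of 361 miRNAs (0%) passed a Benjamini-Hochberg adjusted p of 0.05, and so 0 of the 8 members did. DESeq2 and limma-voom also called 0. At an unadjusted p under 0.05, edgeR gave 10 of 361 miRNAs (2.77%) and limma-voom 5 of 361. DESeq2, run without the filter on low counts on the 479 miRNAs with any count, gave 15. In each of the 3 methods 1 member, miR-615-3p, was among them. Of the members, 6 had a lower and 2 a higher fitted level, with a median log2 fold change of -0.10, beside 53.5% lower and a median of -0.04 over all 361. The ranges of both groups lay fully apart for 34 of 361 miRNAs (9.42%) and for 2 of the 8 members, miR-10a-5p and miR-10b-5p.

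For miR-10a-5p the mean was 100346 ± 5650 CPM (SD, n = 3) in normal glucose and 78308 ± 13389 CPM in high glucose. The fitted log2 fold change was -0.29 (SE 0.25, 95% interval -0.82 to 0.23), which did not pass. For miR-10b-5p the means were 94703 ± 6842 and 79940 ± 7068 CPM, and the log2 fold change was -0.16 (SE 0.25, interval -0.69 to 0.36). On the trimmed-mean (TMM) scale that edgeR uses, the groups still did not overlap in miR-10a-5p but did in miR-10b-5p. On the scale of the authors' normalized column they overlapped in both. The share of all miRNAs apart was not counted on either scale. Without normal glucose replicate 2 the log2 fold change was -0.16 for miR-10a-5p and -0.0648 for miR-10b-5p, and without mannitol replicate 2, which enters through the joint fit, it was -0.19 and -0.0622.

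miR-615-3p had the largest log2 fold change of the members, with 5840 ± 2733 CPM (SD, n = 3) in normal glucose against 2797 ± 1154 CPM in high glucose. Its log2 fold change was -1.06 (SE 0.40, interval -1.92 to -0.21), with the smallest unadjusted p of the 361 miRNAs, 0.0183, and an edgeR adjusted p of 0.995. High glucose was higher in 1 of 9 pairs of libraries in CPM. On the scale of the authors' normalized column it was higher in 0 of 9, at 125 to 163 RPM against 184 to 406 RPM in normal glucose. The share of all miRNAs apart on that scale was not counted. Without normal glucose replicate 2, the library with the highest level, the log2 fold change was -0.49 and the unadjusted p 0.213. The unadjusted p was also above 0.05 without high glucose replicate 2 (0.0548) or high glucose replicate 3 (0.0743). miR-615-5p had a log2 fold change of -0.55 (SE 0.57) with means of 37.8 ± 16.4 and 26.4 ± 16.8 CPM, and -0.06 without normal glucose replicate 2.

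The other 4 members were closest to no difference. The log2 fold change was 0.09 (SE 0.34, interval -0.62 to 0.81) for miR-10a-3p and -0.04 (SE 0.34, interval -0.76 to 0.68) for miR-10b-3p. It was -0.02 (SE 0.28, interval -0.61 to 0.58) for miR-196a-5p and 0.10 (SE 0.35, interval -0.64 to 0.83) for miR-196b-5p. The sign of each of these 4 changed under at least 1 other processing, and the intervals allow changes in both directions.

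**Figure D3:**
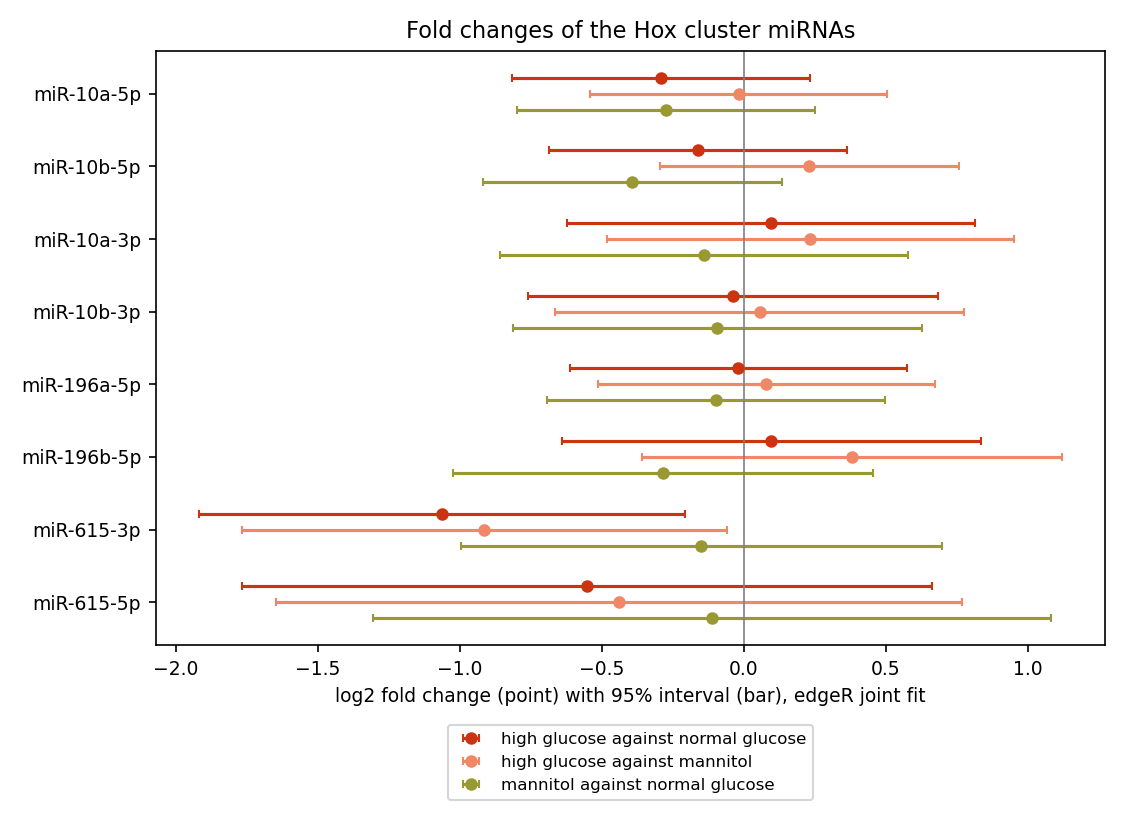
Fitted log2 fold change (edgeR, log2 scale) of the 8 Hox cluster miRNAs in the 3 comparisons, as points with 95% intervals. All intervals cross 0 except those of miR-615-3p in high glucose against normal glucose (-1.92 to -0.21) and against mannitol (-1.77 to -0.06), and no member passed the adjusted threshold.

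High glucose against mannitol compares glucose with an osmotic control, and it shares the high glucose libraries with the comparison above. edgeR called 0 of 361 miRNAs (0%) and 0 of 8 members, as did DESeq2 and limma-voom. At an unadjusted p under 0.05, edgeR gave 19 of 361 (5.26%), DESeq2 25 of 479 and limma-voom 29 of 361, with miR-615-3p again the 1 member. Non-overlapping ranges were found for 37 of 361 miRNAs (10.2%) and 0 of 8 members in CPM. On the scale of the authors' normalized column miR-615-3p did not overlap, and the share of all miRNAs apart on that scale was not counted. Of the members, 3 were lower and 5 higher, with a median of 0.07, beside 53.5% lower and a median of -0.04 over all 361. Scaled to the constant behind the authors' normalized column, all 8 were lower with a median of -0.44. On that scale 82.8% of all miRNAs were lower as well, and the median of all miRNAs moved to -0.59. The members' median was above that of all miRNAs on both scales, but below it with the GC trend removed (-0.17 against -0.06) and with listed zeros set to 9 (-0.11 against -0.05).

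miR-615-3p was at 5855 ± 2436 CPM (SD, n = 3) in mannitol against 2797 ± 1154 CPM in high glucose. The log2 fold change was -0.91 (SE 0.40, interval -1.77 to -0.06), with an unadjusted p of 0.0376, the 14th smallest of 361, and an edgeR adjusted p of 0.704. High glucose was higher in 1 of 9 pairs of libraries in CPM. It was higher in 0 of 9 on the scale of the authors' normalized column, where mannitol held 210 to 647 RPM. How many of all miRNAs lay apart there was not counted. The adjusted p was 0.0802 without mannitol replicate 2, the lowest of any member under any setting tried, beside values up to 0.9998 for that result. The unadjusted p was above 0.05 without mannitol replicate 1 or 3 (0.105 each), high glucose replicate 2 (0.0797) or high glucose replicate 3 (0.129). miR-615-5p had a log2 fold change of -0.44 (SE 0.57) with a mean of 39.0 ± 22.6 CPM in mannitol.

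The miR-10 guide arms had log2 fold changes of -0.02 (SE 0.25, interval -0.54 to 0.51) for miR-10a-5p and 0.23 (SE 0.25, interval -0.29 to 0.76) for miR-10b-5p. The means in mannitol were 87434 ± 20009 and 75161 ± 16073 CPM. The passenger arms had 0.23 (SE 0.34) for miR-10a-3p and 0.06 (SE 0.34) for miR-10b-3p. miR-196a-5p had 0.08 (SE 0.28) and miR-196b-5p 0.38 (SE 0.35, interval -0.36 to 1.12), higher in high glucose in 7 of 9 pairs. Without mannitol replicate 2, the library highest in the miR-10 3p arms and highest of its group in miR-196b-5p, miR-10a-3p had 0.66 (unadjusted p 0.0496) and miR-196b-5p 0.77 (unadjusted p 0.0381). With miR-615-3p, 3 members were then under an unadjusted p of 0.05. So were 96 of all miRNAs tested in that fit, against 19 in the main fit. No member passed after adjustment, with edgeR adjusted p of 0.192 for miR-10a-3p and 0.172 for miR-196b-5p.

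Mannitol against normal glucose compares added mannitol at the same glucose, and it shares libraries with both comparisons above. Higher osmolality and mannitol itself cannot be told apart in it. edgeR called 0 of 361 miRNAs (0%) and 0 of 8 members, and DESeq2 and limma-voom called 0. At an unadjusted p under 0.05, edgeR gave 5 of 361 (1.39%), DESeq2 3 of 479 and limma-voom 3 of 361, with 0 members among them. Ranges were apart for 12 of 361 miRNAs (3.32%) and 0 of 8 members. All 8 members had a lower fitted level, with a median of -0.14, beside 47.9% lower and a median of 0.01 over all 361. Scaled to the constant behind the authors' normalized column, all 8 were higher with a median of 0.33. On that scale only 10.2% of all miRNAs were lower, and the median of all miRNAs moved to 0.50. The direction of all 8 thus depends on the scaling, and their median was below that of all miRNAs on both scales.

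miR-10b-5p had the largest log2 fold change of this comparison among the members, -0.39 (SE 0.25, interval -0.92 to 0.13), and miR-10a-5p had -0.27 (SE 0.25, interval -0.80 to 0.25). Without mannitol replicate 3, the library of its group with the highest level of both, these were -0.60 (unadjusted p 0.0393, edgeR adjusted p 0.996) and -0.48. Without normal glucose replicate 2 they were -0.25 and -0.10, and without mannitol replicate 1 miR-10b-5p had -0.24. miR-10a-3p had -0.14 (SE 0.34) and miR-10b-3p -0.09 (SE 0.34). miR-196a-5p had -0.10 (SE 0.28), miR-196b-5p -0.28 (SE 0.35), miR-615-3p -0.15 (SE 0.40) and miR-615-5p -0.11 (SE 0.56). For miR-615-3p the means of these 2 groups, 5855 and 5840 CPM, lay far inside their SD.

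The level of miR-615-3p varied together with the summed share of other GC-rich miRNAs, a sum in which abundant miRNAs weigh most. Their share was taken of the counts of miRNAs that have a RefSeq sequence, without the 8 members. The 72 miRNAs outside the Hox clusters with at least 60% G and C took 5.42%, 4.25% and 3.83% of these counts in normal glucose, 6.02%, 2.82% and 6.04% in mannitol, and 4.23%, 2.44% and 2.86% in high glucose. The means were 4.501% ± 0.827 (SD, n = 3), 4.96% ± 1.85 and 3.18% ± 0.937. miR-99b-5p, with 63.6% G and C, is 1 of these 72 and was alone at 7019 to 17550 CPM, a large part of the sum. The relation without miR-99b-5p was not tested. Across the 9 libraries the Pearson r of the share of all 72 with the log2 level was 0.839 for miR-615-3p and 0.877 for miR-615-5p. It was 0.781 for miR-10a-5p, 0.280 for miR-10b-5p and 0.022 for miR-196a-5p, and -0.695, -0.622 and -0.652 for miR-10a-3p, miR-10b-3p and miR-196b-5p. These values describe 9 libraries from 3 groups that share their scaling, and their part in the results was tested only by the fit that follows.

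With the linear trend of level on GC content removed from each library, a choice made after seeing the data and possible for 308 of the 361 miRNAs, miR-615-3p had a log2 fold change of -0.89 (SE 0.35) in high glucose against normal glucose. Its edgeR unadjusted p in that comparison was 0.0218, with an adjusted p of 0.941. Against mannitol miR-615-3p had -0.46 (SE 0.35), with an edgeR adjusted p of 0.9746 and an unadjusted p of 0.207. miR-615-5p then had -0.26 against normal glucose and 0.50 against mannitol. Whether GC content stands for library preparation or for vesicle content was not tested.

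**Figure D4:**
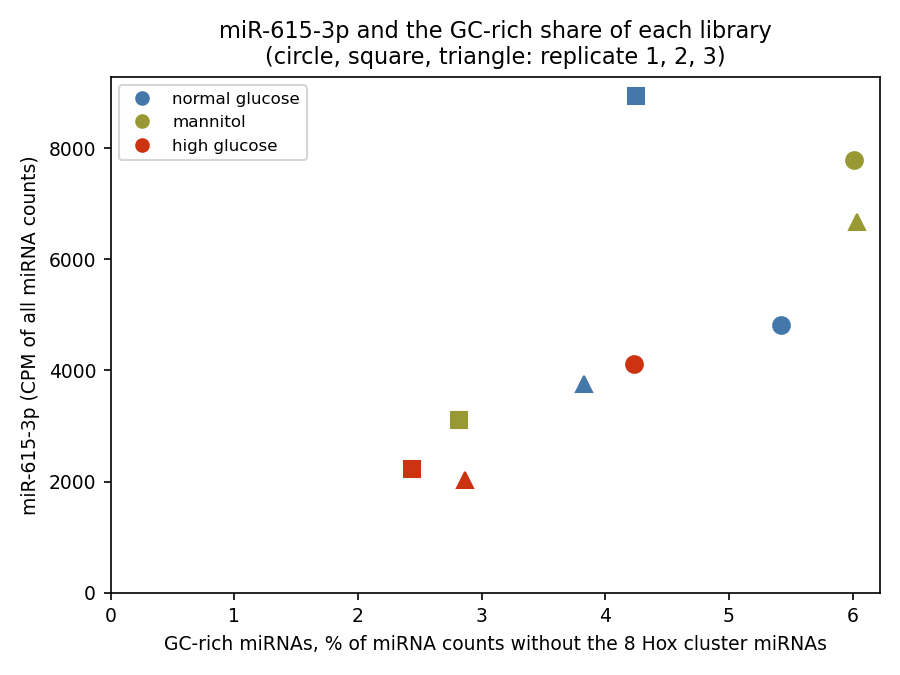
Level of miR-615-3p (CPM) against the share of GC-rich miRNAs outside the Hox clusters in each library (%), with 1 point per library by group. High glucose replicates 2 and 3 and mannitol replicate 2 hold the lowest shares, 2.44% to 2.86%, and the 3 lowest levels, 2034 to 3116 CPM.

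The closest relatives of miR-10 outside the Hox clusters are miR-99a, miR-99b and miR-100, whose 5p arms have the shifted seed ACCCGUA. miR-99a-5p was at 4173 ± 582 CPM (SD, n = 3) in normal glucose, 4657 ± 649 in mannitol and 3097 ± 250 in high glucose. miR-99b-5p was at 13253 ± 3305, 13744 ± 5559 and 8686 ± 2029 CPM, and miR-100-5p at 15674 ± 3399, 16341 ± 4102 and 13278 ± 3018 CPM. None of the 3 passed the test in any comparison, and all 3 had a lower fitted level in high glucose than in both other groups. The log2 fold changes against mannitol were -0.43 (SE 0.25), -0.50 (SE 0.31) and -0.15 (SE 0.26) in that order, beside -0.02 for miR-10a-5p and 0.23 for miR-10b-5p. Against normal glucose they were -0.32, -0.55 and -0.15, beside -0.29 and -0.16 for the same 2 members. The difference between the relatives and miR-10 was not tested.

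Members of 1 hairpin or family did not all move alike over the 9 libraries. The Pearson r of log2 CPM was 0.794 between miR-10a-5p and miR-10b-5p, 0.879 between both arms of miR-615 and 0.731 between the miR-10 3p arms. It was -0.603 between the arms of miR-10a, -0.025 between those of miR-10b and -0.307 between miR-196a-5p and miR-196b-5p. Between miR-10a-3p and miR-615-5p it was -0.887. All of these share the libraries and their scaling, and they are given as a description.

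Among 153 miRNAs outside the 8 with a mean of at least 100 CPM and a count in every library, those with the most similar pattern differed from member to member. For miR-10a-5p they were miR-92b-3p (r = 0.880), miR-224-5p (0.870) and let-7d-3p (0.861), and for miR-10b-5p they were miR-669c-5p (0.763), miR-222-5p (0.718) and miR-206-3p (0.677). For miR-10a-3p they were miR-106b-5p (0.890), miR-186-5p (0.883) and miR-29a-3p (0.880), and for miR-10b-3p they were miR-499-5p (0.931), miR-185-5p (0.830) and miR-199a-3p (0.812). For miR-196a-5p they were miR-30d-5p (0.761), let-7e-5p (0.690) and miR-128-3p (0.683), and for miR-196b-5p they were miR-221-3p (0.859), miR-186-5p (0.823) and miR-344-3p (0.793). For miR-615-3p they were miR-674-3p (0.980), let-7b-5p (0.931) and miR-1964-3p (0.925), and for miR-615-5p they were let-7d-3p (0.919), miR-125a-5p (0.914) and miR-92a-3p (0.905). Each r is over the 9 libraries and was picked as the highest of 153, so its size owes something to that choice.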

How the data were processed

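Small RNA libraries of podocyte vesicles were analysed from 9 tables, 3 per group. The deposited values were read counts per mature miRNA and a normalized value, here called RPM, which per the file headers and the values is the count divided by a constant per library that the authors do not define and that exceeds the miRNA count sum. bcl2fastq, BWA and mm10 are named, with no version, per the submitters' processing notes. The rule for assigning reads to miRNAs, and any tool setting, was not given in the sources used here. Groups came from the treatment labels. CPM is the count scaled to 1e6 miRNA counts. Counts were tested with edgeR 4.0.16 in R 4.3.3 (TMM scaling, filterByExpr, robust quasi-likelihood F test, all 9 libraries in 1 fit, Benjamini-Hochberg adjustment over 361 miRNAs, threshold 0.05). Alternatives were DESeq2 1.42.0, limma-voom (limma 3.58.1), other scalings, no filter, listed zeros set to 9, only the compared groups, each library left out, a replicate block and, added after seeing the data, removal of a GC trend. The fit was also run on simulated counts, with less spread than was fitted here and with larger changes than any member had. That run does not show how the fit performs on these libraries. Sequences and hairpins came from RefSeq tables on GRCm38.p6, and host genes from the GENCODE annotation of the same build. No 2 libraries of a group agreed within counting noise (chi-square per degree of freedom 74.8 to 645). The members were listed by name among miRNAs encoded in the Hox clusters, without the 3p arms of the miR-196 hairpins. This group of miRNAs, like the lists, was picked with earlier results of these data known. Named miRNAs are all 8 members, the other miR-196 arms, the 3 miR-10 relatives and the 3 miRNAs with the highest r to each member; miRNAs of the marker lists and those called only under an alternative are named besides.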

Additional observations from a re-analysis of the deposited data

How the results depend on the processing

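No member passed the adjusted threshold under any of the 19 alternatives, and of 456 member values 401 kept the sign of the log2 fold change and 55, from 19 of the 24 results, did not. miR-615-3p kept its sign in both high glucose comparisons under all 19, from -1.38 to -0.49 against normal glucose and from -1.62 to -0.46 against mannitol. The causes of the reversals below were not tested. Scaled to the library constant, high glucose against mannitol became -0.23 for miR-10a-3p, -0.36 for miR-10b-5p, -0.42 for miR-10b-3p, -0.47 for miR-196a-5p and -0.0619 for miR-196b-5p. Mannitol against normal glucose became 0.30 for miR-10a-5p, 0.28 for miR-10a-3p, 0.18 for miR-10b-5p, 0.41 for miR-10b-3p, 0.36 for miR-196a-5p, 0.18 for miR-196b-5p, 0.51 for miR-615-3p and 0.53 for miR-615-5p. With listed zeros set to 9, high glucose against mannitol became -0.10 for miR-10b-3p and -0.12 for miR-196a-5p, and mannitol against normal glucose became 0.0457 for miR-10b-3p, 0.0215 for miR-196a-5p, 0.0147 for miR-615-3p and 0.0566 for miR-615-5p. With the GC trend removed, high glucose against normal glucose became -0.19 for miR-10a-3p, high glucose against mannitol became -0.17 for miR-10a-3p, -0.23 for miR-10b-3p, -0.18 for miR-196a-5p and 0.50 for miR-615-5p, and mannitol against normal glucose became 0.0239 for miR-10b-3p and 0.0375 for miR-196a-5p. High glucose against mannitol was 0.00085 for miR-10a-5p with limma-voom and -0.00026 for miR-10b-3p with scaling without the members. Leaving out each library in turn, high glucose against normal glucose ranged from -0.0599 to 0.258 for miR-10a-3p, -0.20 to 0.14 for miR-10b-3p, -0.15 to 0.10 for miR-196a-5p and -0.12 to 0.26 for miR-196b-5p, and without a change of sign from -0.39 to -0.16 for miR-10a-5p, -0.242 to -0.0622 for miR-10b-5p and -1.06 to -0.0581 for miR-615-5p. High glucose against mannitol ranged from -0.12 to 0.19 for miR-10a-5p, -0.135 to 0.399 for miR-10b-3p and -0.0691 to 0.30 for miR-196a-5p, and without a change of sign from 0.0381 to 0.656 for miR-10a-3p, 0.0791 to 0.433 for miR-10b-5p, 0.142 to 0.767 for miR-196b-5p, -1.28 to -0.751 for miR-615-3p and -1.01 to -0.199 for miR-615-5p. Mannitol against normal glucose ranged from -0.458 to 0.0563 for miR-10a-3p, -0.34 to 0.10 for miR-10b-3p, -0.217 to 0.077 for miR-196a-5p, -0.37 to 0.49 for miR-615-3p and -0.35 to 0.44 for miR-615-5p, and without a change of sign from -0.477 to -0.0961 for miR-10a-5p, -0.595 to -0.241 for miR-10b-5p and -0.58 to -0.0459 for miR-196b-5p. The count of called miRNAs was 0 except without the filter, where it was 2 (miR-9-5p and miR-6538) for high glucose against normal glucose, 3 (miR-1a-3p, miR-19b-3p and miR-6538) against mannitol and 1 (miR-1a-3p) for mannitol against normal glucose, with zeros set to 9, 1 (miR-669n) for mannitol against normal glucose, and, leaving out each library, 0 to 1 (miR-19b-3p, without mannitol replicate 2) for high glucose against mannitol. These were named after their values were seen.

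The titles number the libraries of each group 1 to 3, with the unnumbered title taken as 1, without saying what the number marks. Same-numbered libraries deviated together with r from -0.0583 to 0.521, over 0.1 in 7 of 9 pairs, and 9 of 9 libraries correlated best with their own number, a hint from the data and not the design. With the number as a replicate block, 0 miRNAs passed in each comparison, and 19, 52 and 17 had an unadjusted p under 0.05, against 10, 19 and 5 without it. Depth limits mainly miR-615-5p, at 18 to 109 reads, and the 3p arms of miR-196a-2 and miR-196b, at the reporting limit. With 3 libraries per group the intervals of the members were wide.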
